A study of Mus musculus with 4 samples.

Results

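A group of 9 transcription factor genes was followed through mouse macrophages sorted out of perigonadal white adipose tissue: Prdm1, Maf, Irf4, Irf8, Spi1, Cebpb, Klf4, Bach1 and Zeb2. They were taken by symbol, and all 9 have a row among the 32285 genes of each count matrix. The study compares control mice (WT) with mice carrying a conditional knockout (CKO) of BLIMP1, the protein encoded by Prdm1, fed a normal diet (ND) or one high in fat (HFD), and asks how macrophage subsets and functions are remodelled. All 4 groups share the sort, as live CD45-positive, CD11b-positive and CD64-positive cells negative for a lineage stain, and the 10x Genomics Chromium 3′ workflow. Each group is 1 library, so the groups cannot be told apart from their libraries, no test between groups was possible and no p-value is given. Neither the labels nor the file headers give the driver of the knockout, the deleted exons or the number, age and sex of the mice.

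Macrophage identity is set by layers of transcription factors. PU.1, encoded by Spi1, opens the myeloid enhancers on which the other factors act, C/EBPβ (Cebpb) and KLF4 (Klf4) take part in monocyte and macrophage differentiation, and ZEB2 (Zeb2) helps to maintain tissue macrophages. MAF (Maf) is linked to the resident, scavenging state, IRF4 and IRF8 are interferon regulatory factors that guide dendritic cells and monocytes, and BACH1 represses haem and iron genes. BLIMP1 is a repressor best known for plasma cells, and it also acts in myeloid cells.

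The Prdm1 gene (ENSMUSG00000038151) lies on chromosome 10, 44437177 to 44528501 on the minus strand of GRCm38. 2 promoter windows are shown because they are the only windows of the 9 genes, outside Zeb2, with a match to a motif of another member. Each holds the 250 bases before a RefSeq start (GRCm38.p6), printed 5′ to 3′ on the gene's strand with the motif matches in capitals. The Prdm1 window, chr10:44458749-44458998 on the minus strand, lies inside the annotated gene but outside its exons.
Prdm1: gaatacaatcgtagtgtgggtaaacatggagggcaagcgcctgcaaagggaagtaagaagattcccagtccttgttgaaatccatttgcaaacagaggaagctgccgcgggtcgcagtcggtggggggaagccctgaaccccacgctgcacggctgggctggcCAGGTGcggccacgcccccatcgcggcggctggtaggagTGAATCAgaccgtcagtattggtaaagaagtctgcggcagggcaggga
Irf8: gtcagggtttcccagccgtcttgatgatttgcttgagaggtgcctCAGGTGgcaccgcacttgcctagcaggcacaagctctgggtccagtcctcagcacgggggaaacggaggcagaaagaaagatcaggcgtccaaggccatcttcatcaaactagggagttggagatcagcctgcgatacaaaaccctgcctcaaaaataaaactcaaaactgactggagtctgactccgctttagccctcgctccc
The capitals in Prdm1 are CAGGTG, an E-box that ZEB2 binds, 87 bases before the start, and TGAATCA, a match to the BACH1 and AP-1 motif TGANTCA, 48 bases before it. The Irf8 window, chr8:120738389-120738638 on the plus strand, holds CAGGTG 205 bases before a start inside the gene. Searched on both strands, CAGGTG was in 17.2% and TGANTCA in 6.75% of 32851 mouse windows of this length, so neither match is rare. The BLIMP1 motif AGNGAAAG was in 7.30% of windows and, among the 11 windows of the members, in 2 overlapping ones of Zeb2. Maf and Spi1 were not in the promoter table. A match describes letters and is no evidence of binding.

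Cells were kept with at least 500 UMIs (unique transcript counts), at least 300 genes and at most 10% mitochondrial UMIs. This left 4650 WT and 8731 CKO cells under HFD and 3705 and 4302 under ND, with 74442649, 42551849, 21788293 and 24513539 UMIs. WT HFD was the deepest, with a median of 14492.5 UMIs per cell against 3923, 4092 and 3939. Only 11 to 21 barcodes per library also occurred in another library. Levels are summed UMIs per 1000000 (CPM), and intervals are 95% intervals for counting error only and hold no variation between animals. Shares of cells were read after thinning each cell to 2000 UMIs, which left out 67, 1076, 675 and 820 shallower cells. The CD64 gene Fcgr1 stood at 92.0, 66.3, 32.7 and 29.8 CPM, higher under HFD, whereas the CD45 gene Ptprc at 433, 318, 875 and 787 CPM and the CD11b gene Itgam at 179, 179, 310 and 310 CPM were higher under ND. All 8 general macrophage markers exceeded 10 CPM in every library. Fibroblast markers summed to 432, 166, 28.2 and 30.1 CPM, and cDC2 markers to 645, 571, 1066 and 1081 CPM.

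Prdm1, the gene targeted in the study, was detected in all 4 libraries. Under HFD its level was 21.9 CPM (20.8 to 22.9) in the WT library and 22.9 CPM (21.5 to 24.3) in the CKO library. Under ND it was 22.9 CPM (20.9 to 25.0) in WT and 28.4 CPM (26.3 to 30.5) in CKO. The libraries labelled CKO were thus not below those labelled WT, under either diet. Where a deletion lies away from the 3′ end, 3′ counts need not show it. As the deleted exons are not given, these counts were not taken as a test of the labels or of the loss of BLIMP1. Why the level was not lower was not tested. The CKO over WT ratio was 1.05 (0.965 to 1.13) under HFD and 1.24 (1.10 to 1.39) under ND, both under the 1.5-fold size used below to call a gene higher or lower. At equal depth a Prdm1 UMI was found in 4.34% (3.77 to 4.97), 4.01% (3.58 to 4.47), 4.59% (3.87 to 5.39) and 6.09% (5.32 to 6.93) of cells, and without thinning in 21.3%, 8.93%, 9.61% and 11.9%. The unthinned order, with WT HFD far ahead, follows depth and is not read as expression.

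The Prdm1 counts were not held by a few cells: the 10 richest cells gave 5.04%, 3.80%, 11% and 7.77% of them. Fibroblast-marker cells, which should lack Prdm1, held 1 Prdm1 UMI in 47 cells of WT HFD, a level of 1.36 CPM (0.0344 to 7.57), and 0 in 56 cells of CKO HFD. Those cells had median depths of 16118 and 3698.5 UMIs. After thinning 0 of 47 and 0 of 56 of them had a Prdm1 UMI, which allows shares of up to 6.38% and 5.36% and does not separate the shares from background at this number of cells. The level of 1.36 CPM lay below the whole-library interval of WT HFD. Irf4, Irf8 and Spi1 were likewise at 4.08, 5.44 and 27.2 CPM in the WT HFD fibroblast-marker cells, but Maf, Cebpb, Klf4, Bach1 and Zeb2 were at 236, 481, 646, 50.3 and 516 CPM there, so these 5 were also present in cells with fibroblast markers. Plasma cells are another source of Prdm1, and their genes were sparse: Jchain, the joining chain of secreted antibody, stood at 0.0940, 13.9, 7.44 and 4.04 CPM, and Mzb1, a plasma cell chaperone, at 0 to 1.56 CPM. The whole list of 5 plasma cell genes, with 3 or 4 above 10 CPM, summed to 285, 355, 417 and 540 CPM, mostly from Xbp1 and Ighm. Its part in the Prdm1 level was not tested.

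**Figure D1:**
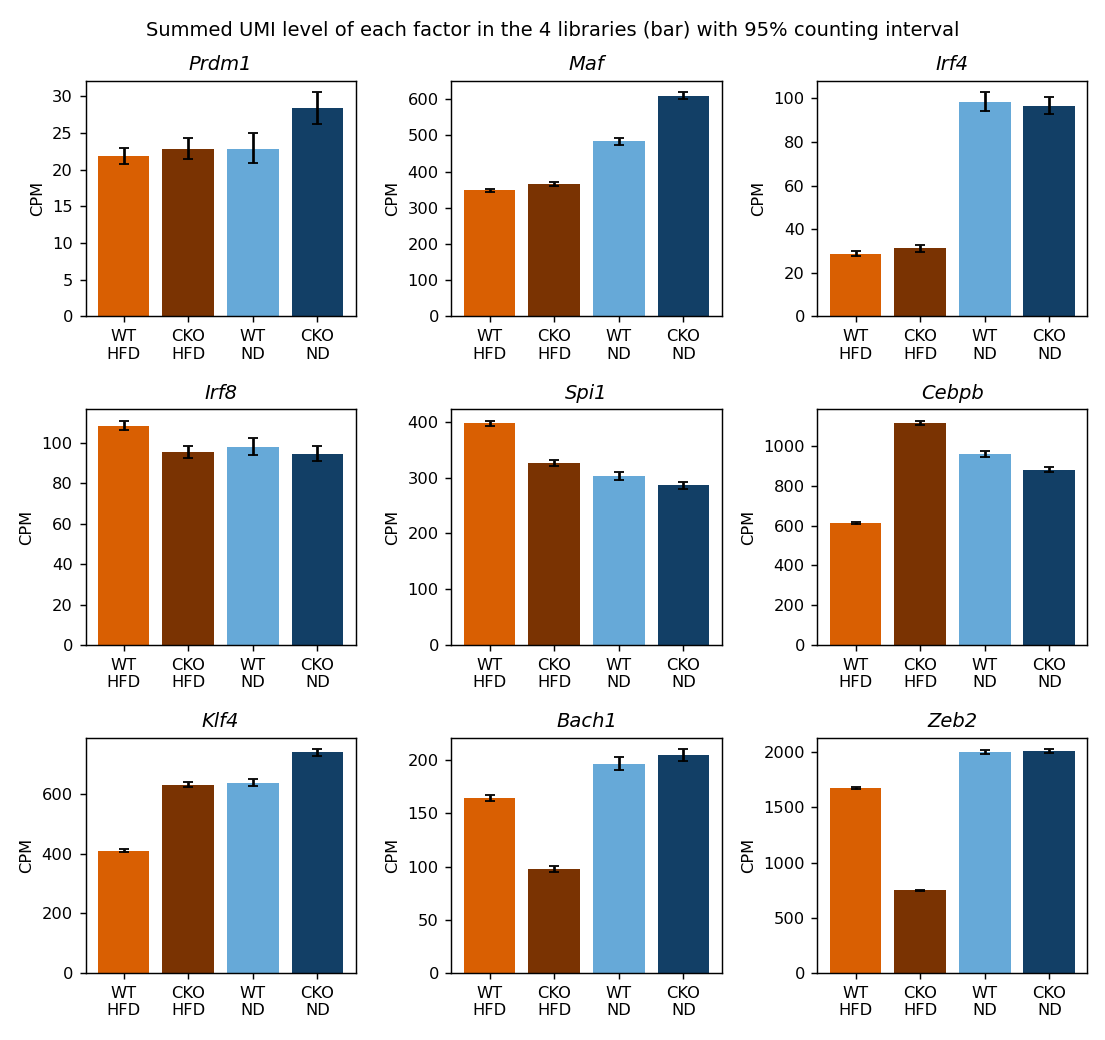
Level of each of the 9 factors (CPM, linear axes from 0) in the 4 libraries, WT HFD, CKO HFD, WT ND and CKO ND; bars are levels and error bars 95% counting intervals. Prdm1 stays between 21.9 and 28.4 CPM, whereas Zeb2 and Bach1 are lowest in CKO HFD and Irf4 is low in both HFD libraries.

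Under HFD, 4 of the 9 factors differed more than 1.5-fold between the library labelled CKO and the one labelled WT: Cebpb and Klf4 were higher in CKO, and Bach1 and Zeb2 lower. Of 7864 genes with at least 10 CPM in either library, 24.1% differed by this much, 5.12% upwards and 19% downwards, so the count is set against a shifted background. Over all genes the log2 ratios had a median of −0.21. Cebpb, the gene of C/EBPβ, was at 614 CPM (608 to 620) in the WT and 1118 CPM (1108 to 1128) in the CKO library, a ratio of 1.82 (1.80 to 1.84). Klf4 went from 410 CPM (405 to 414) to 629 CPM (622 to 637), a ratio of 1.54 (1.51 to 1.56). The shares of cells at equal depth moved the same way, from 59.6% to 75.5% for Cebpb and from 42.5% to 55.2% for Klf4. Tmem189 overlaps Cebpb on the opposite strand, and no label or header gives the strand setting of the counting.

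Zeb2, which sustains macrophage identity in tissues, had the lowest ratio of the 9. WT held 1674 CPM (1665 to 1683) and CKO 749 CPM (741 to 758), a ratio of 0.448 (0.442 to 0.453), and 86.5% and 68.0% of cells at equal depth had a Zeb2 UMI. Bach1, the repressor of haem and iron genes, stood at 165 CPM (162 to 168) and 97.7 CPM (94.7 to 101), a ratio of 0.593 (0.572 to 0.614). Spi1 had a ratio of 0.821 (0.804 to 0.838) and Irf8 of 0.877 (0.845 to 0.911), while Maf had 1.05 (1.03 to 1.07) and Irf4 1.09 (1.01 to 1.16). None of these 4 passed 1.5-fold, and relative to the median of all genes Irf8 lay slightly above 0, by 0.02 on the log2 scale.

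The CKO over WT ratios under HFD fell with the length of the gene. The median log2 ratio went from 0.11 in the shortest of 5 equal groups of genes by span (median 4.74 kb) to −0.64 in the longest (122.6 kb). Zeb2 spans 134 kb and Prdm1 91.3 kb, whereas Cebpb spans 1.5 kb and Klf4 5.32 kb. Relative to genes of their own span group, the log2 ratios were 0.75 for Cebpb, 0.51 for Klf4, −0.56 for Bach1, −0.52 for Zeb2 and 0.70 for Prdm1, so that 2 of the 9, Cebpb and Prdm1, were then past 1.5-fold. The Prdm1 call uses the whole annotated span, but the RefSeq start shown above lies inside it. From that start the span is shorter, and the call with it was not tested. The part of gene span, and of the intron counting behind it, was not tested. In CKO over WT under ND no such gradient was seen, with medians of 0.02 in the shortest and 0.05 in the longest group. The HFD over ND ratios also fell with span. Their median log2 ratio went from 0.21 in the shortest to −0.48 in the longest group in WT, and from 0.34 to −1.16 in CKO.

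Under ND the 9 factors differed little between the libraries labelled CKO and WT, and none passed 1.5-fold. Over all 8111 genes measured, 0.875% passed, made up of 0.395% that were higher and 0.481% that were lower, and the median log2 ratio was 0.03. Maf had the highest ratio, 1.26 (1.23 to 1.29), with 484 CPM (475 to 493) in WT ND and 609 CPM (599 to 619) in CKO ND, and 45.8% and 52.1% of cells with a UMI at equal depth. Prdm1 followed with 1.24, and Klf4 with 1.16 (1.13 to 1.18). In the order of all genes Maf lay at percentile 97.0 and Prdm1 at percentile 95.8. Cebpb was at 0.918 (0.900 to 0.935) and Spi1 at 0.944 (0.912 to 0.976), while the intervals of Irf4, Irf8, Bach1 and Zeb2 all held 1.

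The diet comparisons use the same libraries again, so they are not independent of the CKO comparisons. Irf4, a factor of alternatively activated macrophages and type 2 dendritic cells, was the member with the lowest HFD over ND ratio in both genotypes. In WT it stood at 28.7 CPM (27.5 to 29.9) under HFD against 98.5 CPM (94.4 to 103) under ND, and in CKO at 31.2 CPM (29.5 to 32.9) against 96.6 CPM (92.7 to 101). The HFD over ND ratio was 0.291 (0.274 to 0.309) in WT and 0.323 (0.302 to 0.345) in CKO, and at equal depth 5.78% and 5.62% of HFD cells had a UMI against 14% and 14.4% of ND cells. Markers of type 2 (cDC2) and mature dendritic cells moved with it. The cDC1 markers summed to 264, 291, 302 and 298 CPM, mostly from Irf8 and Batf3. Plasmacytoid ones summed to 327, 343, 396 and 448 CPM, mostly from Bst2 and Tcf4. The plasmacytoid marker Siglech itself stood at 1.02, 1.67, 11.6 and 11.7 CPM, also higher under ND. Of the cDC1 markers, Clec9a stood at 2.32, 1.43, 4.13 and 3.10 CPM and Xcr1 at 1.48, 0.917, 1.38 and 1.79 CPM. All 5 cDC2 markers exceeded 10 CPM under ND against 3 under HFD, mature dendritic cell markers summed to 7.63 and 9.24 CPM under HFD and to 101 and 66.6 CPM under ND, and cells with a Cd209a UMI made up 2.88% and 3.33% of HFD cells against 15.2% of both ND libraries. Within those Cd209a-positive cells Irf4 was at 95.4 and 55.9 CPM under HFD and at 132 and 133 CPM under ND. In cells with none of the macrophage and monocyte markers described below it was at 35.7 and 34.1 CPM against 108 and 106 CPM. How much of the Irf4 difference rests on dendritic cells was not tested.

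Of the other factors, Cebpb at 0.639 (0.629 to 0.650) and Klf4 at 0.644 (0.631 to 0.657) were over 1.5-fold lower in WT HFD than in WT ND. With Irf4 that made 3 of 9 members, all lower, where 36.1% of 8342 genes passed in either direction, made up of 12.5% that were higher and 23.6% that were lower. In CKO the members past 1.5-fold were Irf4, Zeb2 at 0.373 (0.368 to 0.379), Bach1 at 0.478 (0.458 to 0.498) and Maf at 0.599 (0.586 to 0.613), again all lower. That is 4 of 9, where 52.5% of 8235 genes passed in either direction, made up of 11.4% that were higher and 41.2% that were lower. The share of members is therefore near the background in both. Prdm1 had a diet ratio of 0.956 (0.864 to 1.06) in WT and 0.807 (0.731 to 0.890) in CKO, below 1 in both, but above 1 in both with TMM library sizes (1.14 and 1.13) or relative to the median of all genes (1.08 and 1.08). That median was −0.17 in WT and −0.42 in CKO on the log2 scale. Irf8, at 109, 95.3, 98.1 and 94.7 CPM, and Spi1, at 397, 326, 303 and 286 CPM, passed 1.5-fold in none of the 4 comparisons.

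4 marker genes were used to place the factors in the macrophage and monocyte spectrum. Trem2 marks lipid-associated macrophages, Lyve1 resident perivascular macrophages, Ly6c2 classical monocytes and Treml4 non-classical monocytes. A cell was called positive with at least 1 UMI of the marker among its 2000 thinned UMIs. Trem2-positive cells numbered 1645, 1840, 241 and 264 in WT HFD, CKO HFD, WT ND and CKO ND, and Lyve1-positive cells 270, 1122, 435 and 735. Ly6c2-positive cells numbered 44, 185, 48 and 29, and Treml4-positive cells 35, 47, 182 and 161, so that sets under 50 cells are given without a rank. Cells with none of the 4 UMIs, 2673, 4682, 2175 and 2366, served as the base, and 61, 164, 38 and 60 cells were both Trem2- and Lyve1-positive. Each set carried its own other markers: all 12 measured resident markers were over 1.5-fold higher in Lyve1-positive cells of every library, and 9 to 11 of 11 lipid-associated markers in Trem2-positive cells, 6 or 7 of 7 classical monocyte markers in Ly6c2-positive cells and 7 to 9 of 9 non-classical ones in Treml4-positive cells. Under ND, Trem2-positive cells also had 9 and 10 of the 12 resident markers over 1.5-fold higher, against 0 under HFD.

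Prdm1 was lowest in Lyve1-positive cells under HFD and higher in Trem2-positive cells of 3 libraries. In Lyve1-positive cells it stood at 12.1 CPM (9.10 to 15.9), 13 CPM (10.2 to 16.4), 22.3 CPM (16.9 to 28.8) and 22.4 CPM (18.1 to 27.4) in the order above. In Trem2-positive cells the levels were 22.4 CPM (20.7 to 24.2), 31.7 CPM (28.5 to 35.2), 35.6 CPM (26.9 to 46.2) and 44.2 CPM (35.0 to 55.0), against 21.8, 20.1, 19.7 and 24.9 CPM in cells with none of the markers. The ratios of Trem2-positive cells to those were, in the same order, 1.03 (0.928 to 1.14), 1.58 (1.37 to 1.81), 1.80 (1.33 to 2.40) and 1.78 (1.38 to 2.26), so that WT HFD alone had an interval holding 1. At equal depth 4.5%, 5.65%, 5.81% and 8.33% of Trem2-positive cells and 2.22%, 2.67%, 3.91% and 4.49% of Lyve1-positive cells had a Prdm1 UMI. Among sets of at least 50 cells, neighbours in the order of Prdm1 levels had intervals apart between unmarked and Lyve1-positive cells in both HFD libraries and between Trem2-positive and unmarked cells in CKO ND, and overlapping intervals otherwise. With the marker read at full depth the Trem2 ratios were 1.25, 1.36, 1.25 and 1.39 and the Lyve1 ratios under HFD 0.808 and 0.782, so none of these was then past 1.5-fold. WT HFD was then level with WT ND and no longer stood apart. In WT HFD 3335 cells had a Trem2 UMI at full depth against 1645 at equal depth, so many of its unmarked cells held Trem2.

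In Treml4-positive cells Prdm1 stood at 42.1 CPM (27.9 to 60.8) in WT ND and 70.1 CPM (51.3 to 93.5) in CKO ND, 2.13 times (1.39 to 3.14) and 2.82 times (2.03 to 3.83) the level of unmarked cells. The share of Treml4-positive cells with a Prdm1 UMI was 8.24% (4.69 to 13.2) and 14.3% (9.28 to 20.7), against 4.14% and 5.71% of unmarked cells. These cells were shallow, with median depths of 2784 and 2803 UMIs against 5432 and 5430.5. With at least 2 Treml4 UMIs required, 77 and 53 cells were left, and the ratio was 0.918 in WT ND and 3.03 in CKO ND, so the WT ND value turned round. The 35 and 47 Treml4-positive cells under HFD gave 53.2 CPM (32.5 to 82.2) and 19.6 CPM (6.36 to 45.7). In the small Ly6c2-positive sets Prdm1 stood at 35.1, 26.3, 76.1 and 64.0 CPM, with intervals as wide as 43.5 to 124 CPM in WT ND.

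Over the 36 pairs of a member and a library, 9 were past 1.5-fold in Trem2-positive over unmarked cells, 9 in Lyve1-positive, 18 in Ly6c2-positive and 18 in Treml4-positive cells. For all genes the shares in WT HFD, CKO HFD, WT ND and CKO ND were 10%, 4.57%, 15.6% and 14.2% for Trem2, 16.4%, 13.2%, 19.7% and 17.9% for Lyve1, 32.2%, 23.2%, 48.5% and 49.5% for Ly6c2, and 30%, 38.3%, 44.1% and 42.2% for Treml4. The part of counting error in these shares was not tested.

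Maf followed Lyve1 and ran opposite to Treml4 in all 4 libraries. Its level in Lyve1-positive cells was 992 CPM (962 to 1022), 748 CPM (726 to 772), 1054 CPM (1015 to 1094) and 1216 CPM (1183 to 1250), or 2.90, 2.29, 2.78 and 2.73 times that of unmarked cells. In Treml4-positive cells the ratios were 0.499, 0.503, 0.360 and 0.308. Trem2-positive cells lay on opposite sides by diet, at 0.836 and 0.822 under HFD and at 1.83 and 1.73 under ND, but with the marker read at full depth the HFD ratios were 1.26 and 1.02. The Treml4 ratios under ND were then 0.698 and 0.688, no longer past 1.5-fold. The resident markers of the same cells moved alike, as given above. Gm15655 overlaps Maf on the opposite strand. Klf4, a zinc finger factor that both monocytes and resident macrophages use, was also highest in Lyve1-positive cells, with 860, 1067, 892 and 945 CPM and ratios of 1.97, 1.76, 1.52 and 1.39. At full depth WT ND was at 1.45, under 1.5-fold.

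Cebpb was the only member over 1.5-fold higher in both monocyte-marker sets of all 4 libraries. Treml4-positive cells held 1110 CPM (1006 to 1222), 2286 CPM (2105 to 2480), 2837 CPM (2711 to 2968) and 2645 CPM (2522 to 2772), or 1.80, 2.16, 3.42 and 3.29 times the unmarked level. With Treml4 read at full depth the ND ratios were 2.47 and 2.55. Ly6c2-positive cells gave ratios of 1.87, 1.92, 2.50 and 2.09, so both monocyte sets exceeded 1.5-fold in all 4 libraries. In Trem2- and Lyve1-positive cells Cebpb stayed between 0.765 and 1.18 times the unmarked level. Spi1, the PU.1 gene, was raised in Treml4-positive cells too, at 683 CPM (622 to 749) in WT ND and 634 CPM (574 to 698) in CKO ND, or 2.36 (2.13 to 2.59) and 2.30 (2.08 to 2.55) times. Both ND ratios of Spi1 were 1.88 at full depth. Under HFD the Spi1 ratios in Treml4-positive cells were 1.5 and 1.31, and in Trem2-positive cells they were narrow, 1.09 to 1.17 in the 4 libraries.

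The interferon regulatory factors went separate ways. Irf4 was lower in Trem2-positive than in unmarked cells of all 4 libraries, with ratios of 0.492 (0.444 to 0.545), 0.593 (0.509 to 0.687), 0.684 (0.561 to 0.825) and 0.683 (0.567 to 0.816). In Treml4-positive cells under ND it stood at 21 CPM (11.5 to 35.3) and 24.4 CPM (13.9 to 39.6), or 0.195 and 0.229 times the unmarked level. At full depth these ratios were 0.467 and 0.473. The small Treml4-positive sets under HFD gave Irf4 ratios of 1.04 (0.569 to 1.76) in WT and 0.918 (0.395 to 1.82) in CKO. Irf8, a factor of monocytes and type 1 dendritic cells, was at 1.63 (1.41 to 1.88) and 1.62 (1.41 to 1.86) in Trem2-positive cells under ND, but at 1.12 and 0.943 under HFD. With the marker read at full depth the Trem2 ratios of Irf8 were 0.943, 0.891, 1.23 and 1.46, so both ND calls ended, and WT HFD lay below 1. In Treml4-positive cells of WT HFD, WT ND and CKO ND Irf8 was at 1.61, 1.57 and 1.96, but in CKO HFD at 1.03 (0.668 to 1.53). The WT HFD and CKO HFD sets held 35 and 47 cells. The ND ratios at full depth were 1.44 and 2.87. Cells with a UMI of Xcr1, a type 1 dendritic cell receptor, were 8, 7, 7 and 5, and held Irf8 at 1471, 998, 2281 and 1157 CPM.

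Zeb2 differed from unmarked cells by less than 1.5-fold in every set. It was 1.22, 1.43, 1.2 and 1.25 times the unmarked level in Lyve1-positive cells, the highest of the sets in each library. In Trem2-positive cells its ratios were 0.780, 0.872, 0.919 and 1.06, and in Ly6c2-positive cells 0.747, 1.03, 0.823 and 0.705. The sets differed more from each other. Under HFD Lyve1-positive cells held 2209 CPM in WT and 1034 CPM in CKO, against 1411 and 629 CPM in Trem2-positive cells. The RNA gene Zeb2os overlaps Zeb2 on the opposite strand. Bach1 was below the unmarked level in Trem2-positive cells, at 0.708, 0.925, 0.847 and 0.919, although CKO HFD turned to 1.04 with the marker read at full depth, and above it in Ly6c2-positive cells, at 1.37 to 1.93.

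**Figure D2:**
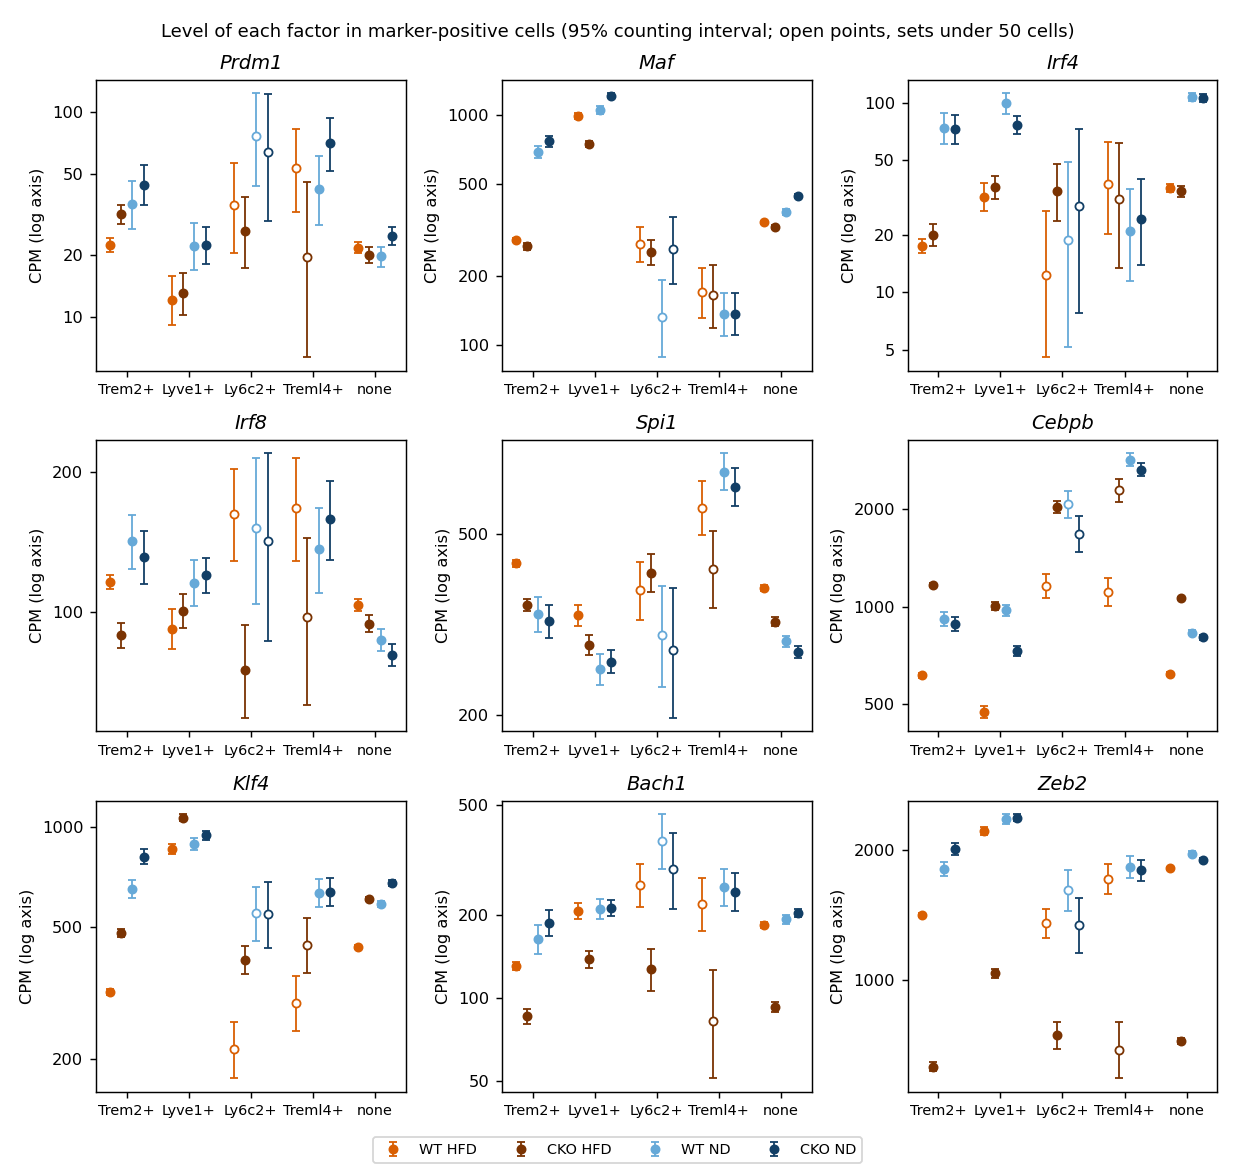
Level of each factor (CPM, log axes) in cells positive for Trem2, Lyve1, Ly6c2 or Treml4 and in cells with none of the 4, coloured by library; bars are 95% counting intervals and open points sets under 50 cells. Maf is highest in Lyve1-positive cells of every library (748 to 1216 CPM), Cebpb is highest in Treml4-positive cells of both ND libraries, and CKO HFD lies lowest for Zeb2 in every set.

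Within the marker sets the 4 factors that differed under HFD kept their direction. The CKO over WT ratio of Cebpb was above 1 in all 5 sets, from 1.71 (1.68 to 1.74) in unmarked to 2.12 (2.02 to 2.23) in Lyve1-positive cells, and that of Klf4 also, from 1.24 (1.19 to 1.29) in Lyve1-positive to 1.86 (1.5 to 2.33) in Ly6c2-positive cells. Zeb2 was below 1 in all 5, from 0.399 (0.392 to 0.405) in unmarked to 0.550 (0.495 to 0.612) in Ly6c2-positive cells, and Bach1 also, from 0.377 (0.221 to 0.614) in Treml4-positive to 0.668 (0.606 to 0.737) in Lyve1-positive cells. The direction was therefore the same in cells chosen for the same marker. Over all genes 26.1% passed 1.5-fold within Trem2-positive, 22.6% within Lyve1-positive, 45.8% within Ly6c2-positive, 56% within Treml4-positive and 28.6% within unmarked cells. Prdm1 had a ratio of 1.42 (1.24 to 1.61) in Trem2-positive cells, where its levels were 22.4 and 31.7 CPM, but 0.924 (0.827 to 1.03) in unmarked and 1.07 (0.742 to 1.56) in Lyve1-positive cells.

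Maf behaved differently in the whole and in the sets under HFD. Over all kept cells its ratio was 1.05 (1.03 to 1.07), yet it was below 1 in each of the 5 sets: 0.755 (0.723 to 0.788) in Lyve1-positive, 0.941 (0.902 to 0.981) in Trem2-positive, 0.956 (0.930 to 0.983) in unmarked, 0.924 (0.747 to 1.15) in Ly6c2-positive and 0.965 (0.638 to 1.45) in Treml4-positive cells. Lyve1-positive cells, which had the highest Maf level of the sets, made up 5.89% (5.23 to 6.61) of WT cells and 14.7% (13.9 to 15.5) of CKO cells at equal depth. Under ND they made up 14.4% (13.1 to 15.7) in WT and 21.1% (19.8 to 22.5) in CKO, and there the Maf ratio was 1.26 in the whole and not below 1 in any of the 5 sets, at 1.00 (0.741 to 1.36) in Treml4-positive, 1.98 (1.18 to 3.35) in Ly6c2-positive, 1.15 (1.10 to 1.21) in Lyve1-positive, 1.11 (1.02 to 1.2) in Trem2-positive and 1.17 (1.13 to 1.21) in unmarked cells. The part of the Lyve1-positive share in the Maf ratios was not tested. Under ND Cebpb was below 1 in all 5 sets, most in Lyve1-positive cells at 0.750 (0.712 to 0.791), and Prdm1 stood at 1.67 (1.02 to 2.77) in Treml4-positive and 1.26 (1.09 to 1.46) in unmarked cells. Under ND 10% of all genes passed 1.5-fold within Trem2-positive, 4.55% within Lyve1-positive, 48.2% within Ly6c2-positive, 23.2% within Treml4-positive and 1.01% within unmarked cells.

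**Figure D3:**
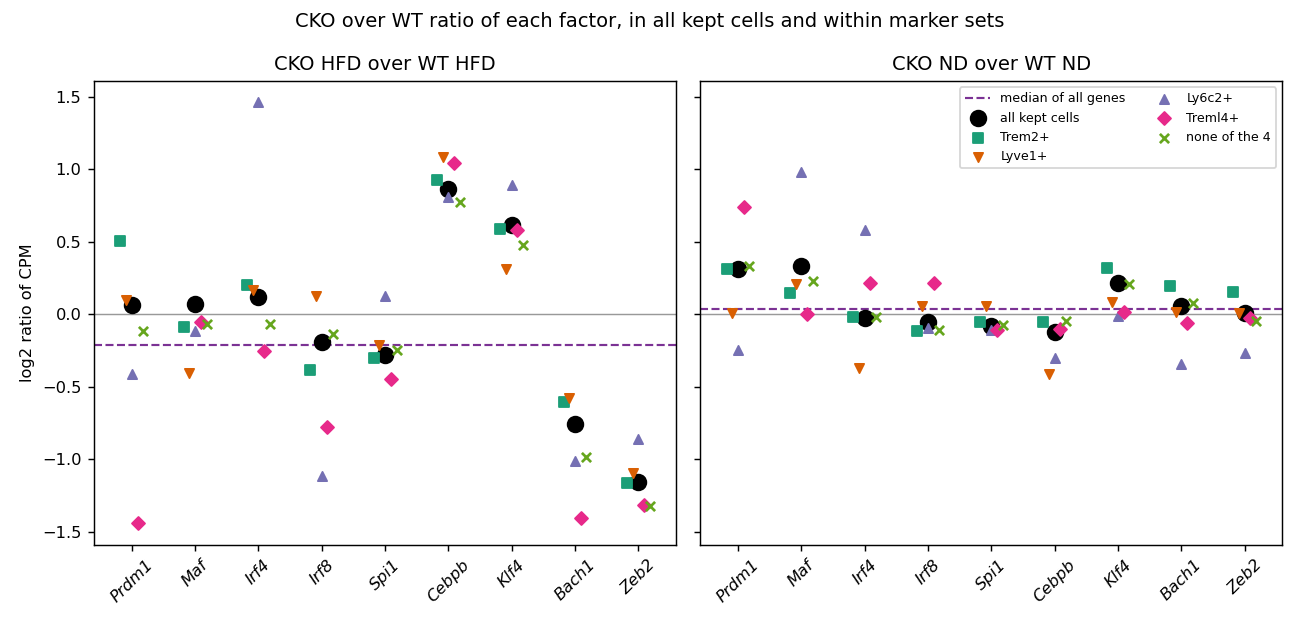
CKO over WT ratio of CPM of each factor (log2 axis) under HFD, left, and ND, right; large black points are all kept cells, small symbols the marker sets, and the dashed line the median of all genes. Under HFD Cebpb and Klf4 lie above 0 and Bach1 and Zeb2 below it in all 5 sets, whereas under ND most points lie near 0.

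Which members went with Prdm1 was asked in the cells themselves. Cells with a Prdm1 UMI among their 2000 thinned UMIs numbered 199, 307, 139 and 212 in WT HFD, CKO HFD, WT ND and CKO ND, and were compared with the 4384, 7348, 2891 and 3270 other cells of the same library. Only 18, 19, 15 and 25 cells had at least 2 Prdm1 UMIs, so most Prdm1-positive cells rest on a single molecule. Of the 32 pairs of a member and a library, 3 passed 1.5-fold, where 2.47%, 4.56%, 14% and 11.3% of all genes did.

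Cebpb was higher in Prdm1-positive cells of all 4 libraries taken whole, by small amounts, but not in every marker set. It stood at 684, 1226, 1136 and 1042 CPM against 611, 1099, 915 and 842 CPM, with ratios of 1.12 (1.07 to 1.17), 1.12 (1.07 to 1.17), 1.24 (1.16 to 1.33) and 1.24 (1.17 to 1.31). With the same mix of marker sets in both arms the ratios lay between 1.09 and 1.15. Within unmarked cells the Cebpb ratio was above 1 in all 4 libraries. In Trem2-positive cells it was 0.897 (0.832 to 0.966) in WT HFD, 1.05 in CKO HFD and 1.03 in CKO ND. In Lyve1-positive cells it was 0.709 (0.581 to 0.858) in CKO HFD and 0.999 in CKO ND. Treml4-positive cells of CKO ND gave 1.12. Bach1 had ratios of 1.29 (1.19 to 1.39), 1.07 (0.912 to 1.24), 1.40 (1.21 to 1.60) and 1.25 (1.11 to 1.41), and Zeb2 of 1.21 (1.18 to 1.24), 1.18 (1.12 to 1.24), 1.03 (0.982 to 1.08) and 1.07 (1.03 to 1.11). Spi1 lay between 1.04 and 1.2. Cells carrying other-lineage markers had at least 2 UMIs over 54 marker genes at full depth, so this filter is not matched for depth. They made up 79.4% of Prdm1-positive and 76.1% of Prdm1-negative cells in WT HFD, the deepest library, and 39.6% to 55.8% elsewhere. Without them 41 Prdm1-positive cells were left in WT HFD. The ratios of Cebpb and Spi1 there were 0.849 and 0.907, and that of Irf4 went from 0.899 to 1.51.

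Irf4 was lower and Irf8 higher in Prdm1-positive cells of the ND libraries, and the 3 pairs past 1.5-fold were Irf4 in both and Irf8 in CKO ND. Irf4 was at 62.3 and 62.7 CPM in Prdm1-positive cells against 102 and 98.3 CPM in the others, ratios of 0.611 (0.452 to 0.808) in WT ND and 0.638 (0.498 to 0.806) in CKO ND, but of 0.899 (0.714 to 1.12) and 1.00 (0.748 to 1.32) under HFD. Irf8 reached 1.63 (1.39 to 1.91) in CKO ND, with 148 CPM against 90.6 CPM, while WT ND gave 1.25 (1.00 to 1.53), or 0.813 without cells carrying other-lineage markers, and the HFD libraries 1.00 and 0.941. Within the unmarked cells of CKO ND the Irf8 ratio was 1.62 (1.31 to 1.97), and within its 22 Prdm1-positive Trem2-positive cells 2.31 (1.51 to 3.41). With Prdm1 read at full depth the ND ratios of Irf4 were 0.745 and 0.755 and the CKO ND ratio of Irf8 was 1.31, so all 3 calls ended. In another random draw they were 0.685, 0.780 and 1.79. Maf had no common direction, with 0.848 (0.795 to 0.905), 0.702 (0.637 to 0.772), 1.33 (1.21 to 1.45) and 1.02 (0.941 to 1.10), and Klf4 was below 1 in both HFD libraries, at 0.872 (0.822 to 0.925) and 0.810 (0.756 to 0.867). Read at full depth, the Maf ratios were 0.778, 0.752, 0.925 and 0.951, so both ND ratios turned below 1.

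**Figure D4:**
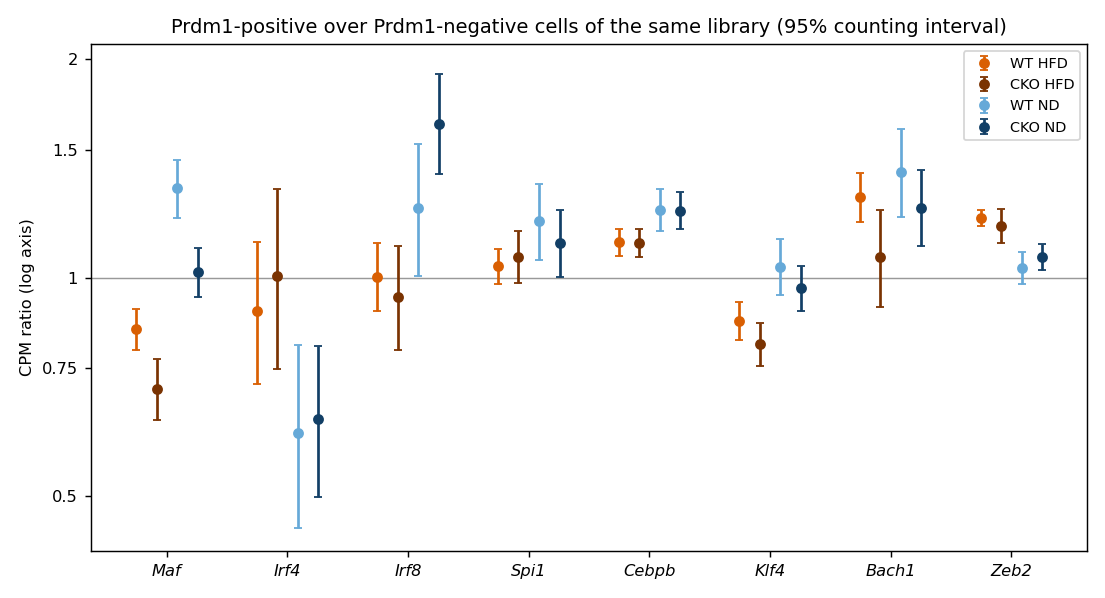
Ratio of CPM of each other factor in Prdm1-positive over Prdm1-negative cells of the same library (log axis); points are the 4 libraries and bars 95% counting intervals. Cebpb lies above 1 in all 4 libraries (1.12 to 1.24), and Irf4 lies below 1 in both ND libraries (0.611 and 0.638).

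The genes most raised in Prdm1-positive cells of every library were not among the 9. Ranked by the lowest of the 4 ratios of (CPM + 10), over 2070 genes, the first was Dusp2, a nuclear phosphatase that switches off MAP kinases, at 1.5 to 1.90. It was followed by the myosin gene Myo1e (1.36 to 1.66), the lipid-sensing nuclear receptor gene Pparg (1.34 to 1.58), the G protein subunit gene Gngt2 (1.33 to 2.38) and the interleukin-1β gene Il1b (1.32 to 1.55). Lrmda, the adaptor gene Fyb, the integrin gene Itgav, the RNA-editing enzyme gene Apobec1 and the inflammasome sensor gene Nlrp3 completed the first 10, with lowest ratios of 1.26 to 1.30. Among the members Cebpb ranked 67, Bach1 162, Spi1 222, Zeb2 233, Irf8 777, Klf4 1771 and Maf 2006, and Irf4 was below the level needed for a rank. These genes were picked by their values in this same contrast and are a description.

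A second view compared patterns over 20 points, the 4 marker sets and the unmarked cells in each library. Pearson's r with Prdm1 was taken on log2(CPM + 5) with each library's mean subtracted, as a description, since the points share libraries and some cells. All points weigh equally and include the sets under 50 cells, whose Prdm1 levels have wide counting intervals. Of the 9 members Cebpb came closest with r = 0.762, then Irf8 with 0.736, Spi1 with 0.524 and Bach1 with 0.430. Klf4 (−0.657), Zeb2 (−0.686), Irf4 (−0.694) and Maf (−0.771) ran the other way. Without the subtraction of library means r was 0.134 for Zeb2, the opposite sign. The Zeb2 ratio was also above 1 in Prdm1-positive cells of each library, but in WT ND, at 1.03, its interval held 1. That WT ND ratio was 0.948 with Prdm1 read at full depth and 0.998 in another draw. Over 5712 genes the 5 most alike were Tpd52, a vesicle traffic gene (0.880), Svbp, a partner of tubulin-trimming enzymes (0.875), Sirpb1c, a signal-regulatory receptor gene (0.869), Abr (0.866), and Senp2, a SUMO protease gene (0.858).

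Genes tied to the factors by earlier work were counted from lists chosen for these pathways. Beside each count stands the background of all genes, 5.12% higher and 19% lower in CKO under HFD, and 0.395% and 0.481% under ND. Of 11 reported BLIMP1 targets 9 were measured, and under HFD 2 were over 1.5-fold lower in CKO and none higher: Ciita, the master regulator of MHC class II, at 0.539 (0.517 to 0.562), and the repressor gene Bcl6 at 0.575 (0.542 to 0.609). A count of 2 in 9 is near the background. Under ND none of the 9 passed, with the chemokine gene Ccl8 at 0.716. Their median log2 ratios were −0.08 and −0.05, against −0.21 and 0.03 over all genes. Of 41 other macrophage and monocyte factors 37 were measured, with 1 higher and 13 lower under HFD and none past 1.5-fold under ND. The lipid-sensing receptor gene Pparg at 0.315 (0.298 to 0.332) and the lysosomal factor gene Mitf at 0.345 (0.332 to 0.359) were lowest under HFD, while under ND Tfec, of the Mitf family, had 1.30. The medians were −0.26 and 0.05.

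Of 9 genes linked to MAF, 3 were higher and 1 lower in CKO under HFD, and 1 was higher and 1 lower under ND. The anti-inflammatory cytokine gene Il10 was lower under both diets, at 0.275 (0.257 to 0.295) and 0.356 (0.319 to 0.398), whereas the scavenger receptor gene Cd163 had 2.44 (2.36 to 2.51) under HFD and Lyve1 1.54 (1.46 to 1.62) under ND. Il10 stood at 79.5, 21.9, 51.0 and 18.2 CPM in WT HFD, CKO HFD, WT ND and CKO ND. Of the 9 BACH1-repressed genes, 7 were measured under HFD, with the biliverdin reductase gene Blvrb higher at 1.58 (1.54 to 1.62) and the thioredoxin reductase gene Txnrd1 lower at 0.601 (0.572 to 0.630). Under ND none of 8 passed, with the cystine transporter gene Slc7a11 at 0.696 and the iron exporter gene Slc40a1 at 1.16. Of 8 genes that depend on PU.1, Csf2ra, a cytokine receptor gene, was lower under HFD at 0.654 (0.636 to 0.673), Fcgr1 was at 0.720, and none passed under ND, where Tlr4 had 1.21 and Fcgr1 0.910. Of 10 non-classical monocyte genes 5 were measured under HFD, with the integrin gene Itgal higher at 1.85 and the ribonuclease gene Ear2 lower at 0.651, and all 10 under ND, with none past 1.5-fold, Cd300e at 0.710 and Treml4 at 0.724.

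Heat shock genes, which respond to tissue dissociation, were also higher in the CKO libraries. In a list of 12 dissociation genes, added after values had been seen, the median log2 ratio was 0.33 under HFD and 0.01 under ND, and the list summed to 10368, 12453, 12114 and 11789 CPM, so the list as a whole was not higher under ND. The heat shock gene Hspa1a stood at 118, 217, 48.0 and 102 CPM in WT HFD, CKO HFD, WT ND and CKO ND. Its CKO over WT ratio was 1.84 under HFD, where it was the only one of the list past 1.5-fold, and 2.13 under ND, where Hspa1b was also higher at 2.42. The part of this response in the levels of the 9 factors was not tested.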

How the data were processed

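The deposited files are whole-number UMI counts per gene and cell in 4 filtered matrices, made by the authors with Cell Ranger 7.0.0 per the file headers, on GRCm38 per the submitters' processing notes. No label or header says whether introns were counted or strand was used. The members and lists were chosen with earlier results of these data known. Kept cells had 500 UMIs, 300 genes and at most 10% mitochondrial UMIs. Levels were summed UMIs per 1000000 with exact Poisson intervals, ratios had exact conditional binomial intervals, and shares, after thinning to 2000 UMIs, Clopper-Pearson intervals, all at 95%. A gene was called higher or lower past 1.5-fold in (CPM + 1) with at least 10 CPM on one side. Scrublet's automatic threshold called 0 cells in every library and so did not work; all cells were kept. Named genes were the 9 members, the 5 most alike to Prdm1, the 10 most raised in Prdm1-positive cells with at least 50 CPM, and the 2 of each list with the largest CKO over WT change; a gene that the rule names for the ND comparison is not reported here. Scripts were tested on simulated data. Python 3.11.15, numpy 2.4.6, pandas 2.3.3, scipy 1.17.1, scanpy 1.11.5, R 4.3.3 and edgeR 4.0.16 (TMM only) were used. Alternatives covered cell filters, scaling, thinning, marker thresholds and pattern settings.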

Additional observations from a re-analysis of the deposited data

Results flagged for a closer look

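Cebpb went opposite ways under the same contrast. Its CKO over WT ratio was 1.82 under HFD and 0.918 under ND, and its HFD over ND ratio was 0.639 in WT and 1.27 in CKO. Relative to genes of its own span group, the CKO over WT log2 ratios were 0.75 under HFD and −0.14 under ND. The HFD over ND log2 ratios were then −0.86 in WT and 0.006 in CKO, so in CKO Cebpb did not stand apart from other short genes. The part of gene span was not tested. With 1 library a group, each direction rests on a single pair of libraries, the contrasts share those libraries, and the difference between them was not tested.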

How the results depend on the processing

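No paired analysis was possible because each group has 1 library, and the group comparisons have no replicate check. Of 121 alternative values of library ratios past 1.5-fold, 0 changed direction and 2 moved over 1.5 times, both Zeb2 HFD ratios set against genes of similar span (0.448 to 0.696 and 0.373 to 0.835). Of 160 such values for marker sets 1 changed direction and 13 moved, of 18 for Prdm1-positive cells 0 and 0, and of 16 for shares 0 and 1. Over all values, small ratios included, the direction changed in 27 of 396 for libraries, 34 of 495 for marker sets, 22 of 192 for Prdm1-positive cells and 17 of 144 for shares. The cause of the changes below was not tested.

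The member count for CKO over WT under HFD, 4, was 2 against genes of similar span and 1 at 2-fold. The count for WT HFD over WT ND, 3, was 1 without mitochondrial and ribosomal genes in the total, 1 relative to the median and 1 at 2-fold. The Prdm1 ratio of CKO HFD over WT HFD, 1.05, was 1.21 with TMM, 1.21 relative to the median and 1.63 by span. That of WT HFD over WT ND, 0.956, was 0.666 without cells carrying other-lineage markers, 0.770 with cells weighted equally, 1.14 with TMM, 1.08 relative to the median and 1.33 by span, and that of CKO HFD over CKO ND, 0.807, was 0.509, 0.568, 1.13, 1.08 and 1.80 in the same order. The values by span take Prdm1 at its whole annotated span, and a span from the RefSeq start inside it was not tested. The other-lineage filter used full depth and left out most cells of WT HFD, the deepest library. Prdm1 share ratios went from 0.924 to 0.420 and from 0.947 to 2.22 without thinning (CKO HFD over WT HFD, WT HFD over WT ND), and from 0.659 to 0.843 at 3000 UMIs (CKO HFD over CKO ND). The Trem2 pair count, 9, was 15 with at least 2 marker UMIs and 4 at full depth. The Prdm1-positive pair count, 3, was 1 in another draw, 0 at full depth and 5 without other-lineage cells. Of the 5 genes most like Prdm1, 1 was shared without subtracting library means. The Treml4-positive Prdm1 ratio in WT ND turned from 2.13 to 0.918 with at least 2 marker UMIs.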

Other observations

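Several genes tied to the factors differed between the diets in the same direction in both genotypes. The following genes lie outside the rule for named genes and were chosen after their values were seen, and the HFD over ND ratios are given for WT and then CKO. The cytokine gene Il6, a reported BLIMP1 target, was at 0.131 and 0.182, and the repressor gene Bcl6 at 0.486 and 0.304. The dendritic cell factor gene Zbtb46 was at 0.0941 and 0.0982, and the iron exporter gene Slc40a1 at 0.0547 and 0.0569. The complement genes C1qa and C1qb were higher under HFD, at 2.20 and 2.33 and at 4.18 and 3.53, as was Fcgr1, at 2.81 and 2.23. Of 10 non-classical monocyte genes 9 were over 1.5-fold lower under HFD in both genotypes, with median log2 ratios of −2.10 and −1.72. Over all genes 36.1% and 52.5% passed 1.5-fold in either direction.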
